A study of Homo sapiens with 42 samples.

Results

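MAPK6, the atypical MAP kinase ERK3, its family members MAPK4, MAPK3, MAPK7, MAPK8 and MAPK14, and its partner kinase MAPKAPK5 were followed across all arrays of a BMI1 knockdown series in a myeloma line. The members were the probe sets of the deposited expression table that the array annotation assigns to a single gene among these 7. Probe sets annotated to several genes were left out. This gave 14 of 54675 probe sets for 6 of the 7 genes: 2 for MAPK6, 3 for MAPK4, 1 for MAPK3, 2 for MAPK7, 5 for MAPK8 and 1 for MAPKAPK5. MAPK14 was not analysed here. MAPK6 was chosen because its signal fell when the BMI1 hairpin was induced, so its values in that contrast are given as a description with no test, and the other genes were chosen by kinship or partnership. Of the 14 probe sets, 10 passed the filter on low signals (no lower than the median of the array on 3 or more of the 42 arrays), and these 10 covered MAPK6, MAPK3, MAPK7, MAPK8 and MAPKAPK5. The 3 probe sets of MAPK4 and the second probe set of MAPK6 did not pass.

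RPMI-8226 is an established human multiple myeloma line, a malignant plasma cell line. One derivative was stably infected with an inducible shRNA against BMI1, a subunit of the Polycomb repressive complex PRC1, and the other with an inducible control shRNA, and the hairpin was switched on with 100 ng/ml doxycycline. Each derivative was profiled without doxycycline at 0, 24, 32 and 48 h and with it at 24, 32 and 48 h, which gave 14 groups of 3 Affymetrix U133 Plus 2 arrays, 42 in all. All groups therefore carry an integrated hairpin construct, each hairpin is represented by a single line, and no uninfected cells were profiled in these groups. The labels number the replicates without saying that they were separate cultures, so p-values measure the spread between arrays, which may be technical.

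MAP kinases pass signals through a cascade in which a MAP kinase kinase kinase phosphorylates a MAP kinase kinase, which phosphorylates the MAP kinase. The conventional members ERK1 (MAPK3), ERK5 (MAPK7), JNK1 (MAPK8) and p38-alpha (MAPK14) are switched on by dual phosphorylation in this way and answer to growth factors or stress. ERK3 (MAPK6) and its paralog ERK4 (MAPK4) are atypical: they lack the dual phosphorylation motif, are phosphorylated in the activation loop by p21-activated kinases, and bind and activate the kinase MK5 (MAPKAPK5). ERK3 is known as a short-lived protein whose abundance is set in large part by degradation, so its mRNA level is only part of its regulation.

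The promoters of the atypical pair are shown because BMI1 acts on chromatin and Polycomb complexes are known to occupy CpG-rich promoters. They are RefSeq sequences of build GRCh38.p14, 250 bases before to 50 bases after the annotated start, on the + strand in both cases, at chr15:52018969-52019268 for MAPK6 and chr18:50559837-50560136 for MAPK4, with each CpG dinucleotide in capitals.
MAPK6: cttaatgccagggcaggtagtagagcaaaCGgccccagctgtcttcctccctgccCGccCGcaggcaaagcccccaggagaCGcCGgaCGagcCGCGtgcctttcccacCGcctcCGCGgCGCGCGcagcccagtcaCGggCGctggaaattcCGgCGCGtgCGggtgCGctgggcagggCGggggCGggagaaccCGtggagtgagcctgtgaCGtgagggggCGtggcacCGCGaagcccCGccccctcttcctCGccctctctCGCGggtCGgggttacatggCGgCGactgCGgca
MAPK4: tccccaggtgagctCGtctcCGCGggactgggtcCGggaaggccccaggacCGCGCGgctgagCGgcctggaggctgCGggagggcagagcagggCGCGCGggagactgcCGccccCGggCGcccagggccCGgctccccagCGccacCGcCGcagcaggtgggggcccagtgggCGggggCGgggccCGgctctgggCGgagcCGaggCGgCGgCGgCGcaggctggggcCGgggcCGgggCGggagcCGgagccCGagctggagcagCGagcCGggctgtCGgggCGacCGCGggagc
The MAPK6 window holds 36 CpG dinucleotides and the MAPK4 window 39, against a median of 14 over 35116 RefSeq promoters of the same length. Fewer CpG were counted in 87.3% and 91.3% of those promoters, respectively. This was not particular to the atypical pair. The windows of MAPK8 (46), MAPKAPK5 (42) and MAPK3 (38) held more CpG than that of MAPK6. Those of MAPK7 (18 and 26) and MAPK14 (24) held fewer. Both windows contain GGGCGG, read on either strand, which 45% of all promoters contain, and the other members' windows contain it as well (8 of 8 windows for the 7 genes). The letters TGACG, present in 24.6% of all promoters on either strand, were found in the windows of MAPK6 and MAPK8, and CACGTG, present in 7.26%, in that of MAPK3. These matches are descriptions of sequence and no binding or chromatin was measured.

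The trimmed mean signal was 150.02 to 150.03 on every array and the array median ran from 16 to 22.5. Of 9 plasma cell markers, 8 passed the filter on low signals, with median signals of 773 for SDC1 and 1346 for IRF4, and SLAMF7 (median 2.9) did not. Of the genes with a probe set, 2 of 4 T cell markers passed at medians near the array median (CD3E 16.35 and CD2 11.95; CD3D and CD3G did not), as did 2 of 4 monocyte markers (CSF1R 24.3 and S100A9 23.55; CD14 and LYZ did not), 1 of 2 erythroid markers (HBB 32.1) and 3 of 4 fibroblast markers (COL1A1 118, DCN 20.45 and COL1A2 14.9). Of 5 epithelial markers 4 passed: EPCAM (median 3285) and KRT18 (median 1917) read high on every array, CDH1 ran from 24.6 to 450.6, KRT8 had a median of 43.25, and KRT19 (median 1.35) did not pass. BMI1 itself, read by a probe set that is also annotated to a readthrough transcript, gave 139.8 to 234.0 on the 9 induced arrays of the BMI1-shRNA line and 758.3 to 1128.8 on the 9 uninduced ones of 24 to 48 h. The 3 arrays of the BMI1-shRNA line at 0 h carry labels that contradict each other: they are untreated by title, treated by characteristics and control cells by source name. On these 3 arrays BMI1 read 1009.3 to 1069.4, inside the uninduced range of that line, while the 21 arrays of the control line read 1117.2 to 1363.7. Errors of signals are SDs, and errors of log2 differences are standard errors from limma on log2(signal + 5.4), a scale that understates changes of dim probe sets. An adjusted p is limma's two-sided p after Benjamini-Hochberg adjustment over 35232 probe sets, and a probe set was called at an adjusted p under 0.05.

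MAPK6 mRNA was at about a common level on every array except the 9 on which the BMI1 hairpin was induced. Without doxycycline, the MAPK6 probe set 207121_s_at read 4008.1, 4082.1 and 4359.4 in the BMI1-shRNA line at 24 h, 3960.5, 3861.2 and 3915.2 at 32 h and 3614.3, 3735.7 and 3715.9 at 48 h. With doxycycline it read 1978.7, 2131.1 and 2069.3 at 24 h, 1940.5, 1638.8 and 1841.4 at 32 h and 1270.4, 1372.9 and 1361.9 at 48 h. The groups did not overlap at any time, and the highest induced array (2131.1) lay below the lowest of the other 33 arrays (3614.3). The log2 difference between doxycycline and no doxycycline was -1.01 ± 0.06 at 24 h, -1.12 ± 0.06 at 32 h and -1.46 ± 0.06 at 48 h, that is 0.497, 0.462 and 0.363 of the uninduced level (3 arrays a side). Averaged over the 3 times it was -1.20 ± 0.03 (9 arrays a side), the 6th lowest value among 14704 genes, between ADA (-1.23) and API5 (-1.17). These values chose MAPK6 and are not tested. In these bulk samples, fewer cells that make MAPK6 and less MAPK6 mRNA per cell cannot be told apart.

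In the control-shRNA line doxycycline left MAPK6 within the spread of its arrays. The probe set read 4376.2, 3992.2 and 4364.7 with doxycycline at 24 h against 4099.8, 3937.3 and 4088.9 without. At 48 h it read 3928.4, 3661.5 and 3819.5 against 4177.7, 3812.7 and 3913.9. The groups overlapped at both times, and the log2 difference averaged over 24, 32 and 48 h was -0.02 ± 0.03 (95% interval -0.08 to 0.05, limma adjusted p = 0.984). No member probe set was called in this comparison (0 of 10 by limma, 0 also at an unadjusted p under 0.05), where 0.0710% of all probe sets were. The effect of doxycycline on MAPK6 in the BMI1-shRNA line minus that in the control line was -1.18 ± 0.05, again a description.

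**Figure D1:**
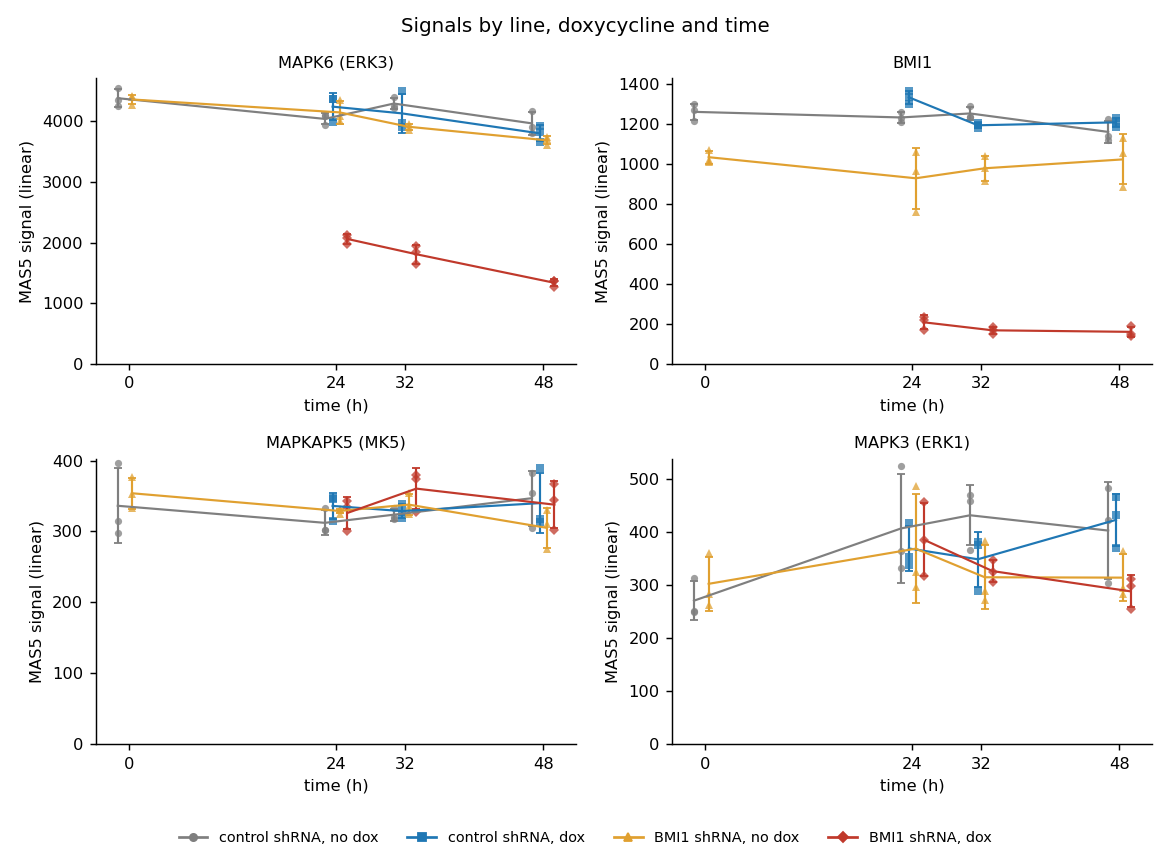
MAS5 signal (linear axis from 0) against time in h for MAPK6, BMI1, MAPKAPK5 and MAPK3, with points for single arrays, lines through group means and bars of 1 SD (n = 3), offset sideways by group. MAPK6 lies between 1270.4 and 2131.1 on the induced BMI1-shRNA arrays and at 3614.3 or above on all others, while the MAPKAPK5 and MAPK3 groups overlap.

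Ordered by mean, the 11 groups without an induced BMI1 hairpin ran from 4384 ± 150 (control line, 0 h) and 4363 ± 75.5 (BMI1-shRNA line, 0 h) down to 3803 ± 134 (control line with doxycycline, 48 h) and 3689 ± 65.1 (BMI1-shRNA line without doxycycline, 48 h). Each neighbouring pair among them differed by less than the larger of their SDs. The 3 induced groups followed below at 2060 ± 76.7, 1807 ± 154 and 1335 ± 56.3 (n = 3 each).

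MAPK6 read lower on the arrays induced for 48 h than on those induced for 24 h. The doxycycline effect at 48 h minus that at 24 h in the BMI1-shRNA line was -0.45 ± 0.08, and the array ranges of 1270.4 to 1372.9 and 1978.7 to 2131.1 did not overlap. These are again the induced arrays on which MAPK6 was chosen, so the change is a description with no test. Of the other 9 member probe sets, 0 were called for it by limma (1 at an unadjusted p under 0.05), where 0.275% of all probe sets were. BMI1's own probe set gave -0.51 ± 0.14 for the same change (limma adjusted p = 0.143), and the uninduced BMI1-shRNA arrays also read lower at 48 h than at 24 h (-0.17 ± 0.06, limma adjusted p = 0.181). The same change was not tested in the control line, where the doxycycline effect was 0.07 ± 0.06 at 24 h and -0.06 ± 0.06 at 48 h.

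The 207121_s_at probe set is of a type that can match several transcripts, and processed MAPK6 pseudogenes exist, so part of its signal may come from near-identical copies. The second MAPK6 probe set, 243831_at, gave no reading of the gene: it read 1.3 to 21.1, was at or above the array median on 2 of 42 arrays, and read 1.3 to 11.9 on the induced arrays against 2.2 to 16.5 on the uninduced BMI1-shRNA arrays of the same times. The fall of MAPK6 therefore rests on a single probe set.

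The paralog MAPK4 read at the level of background. Its probe sets 204707_s_at, 204708_at and 230732_s_at read 0.6 to 17.1, 0.6 to 21.6 and 0.5 to 6, and reached the array median on 0, 1 and 0 of 42 arrays. No array of any group read above 21.6, so a fall of MAPK4, or a rise within background, could not be read. On the 9 induced BMI1-shRNA arrays the highest readings of these probe sets were 13.1, 12 and 3.6. They showed no rise to a level above background there.

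MAPKAPK5, the kinase that ERK3 binds and activates, showed no change that passed the test. In the BMI1-shRNA line the probe set 212871_at read 343.2, 300.1 and 334.5 with doxycycline at 24 h, 379.8, 326.8 and 374.4 at 32 h and 344.9, 366.3 and 301.9 at 48 h. Without doxycycline it read 329.9, 325.2 and 331.2, then 324.3, 335.3 and 353.8, then 274.8, 309.8 and 330.4. The groups overlapped at each time. The log2 difference was 0.07 ± 0.05 on average (95% interval -0.04 to 0.18, limma adjusted p = 0.57), and 0.03 ± 0.05 in the control line. The MAPK6 difference in the same arrays (-1.20) chose that gene, so MAPKAPK5 was not tested against it.

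MAPK3 (ERK1) and MAPK7 (ERK5) likewise had no called response to the hairpin. MAPK3 was read by 212046_x_at alone, a probe set type that can match related sequences, with a lowest, median and highest signal of 253.8, 316.1 and 455.1 on the 9 induced BMI1-shRNA arrays. The 9 uninduced arrays gave 271.2, 295.4 and 485.3, so the groups overlapped along nearly their whole range. The log2 difference was 0.01 ± 0.10 (95% interval -0.20 to 0.22, limma adjusted p = 0.982). The brighter MAPK7 probe set 35617_at read 40.5, 42.9 and 58.8 (lowest, median and highest) on the induced arrays and 29.2, 39.4 and 56.3 on the uninduced ones, which also overlapped. Its difference was 0.17 ± 0.10 (95% interval -0.04 to 0.37, limma adjusted p = 0.453). The other MAPK7 probe set, 207292_s_at, lay near background at 6.6 to 57.5, and its interval of -0.58 to 0.67 leaves a change of either sign possible.

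MAPK8 (JNK1) had 5 probe sets, of which 1 passed the test on induction of the BMI1 hairpin. The set 229664_at read 71.3, 96.3 and 88.1 with doxycycline in the BMI1-shRNA line at 24 h, against 101.2, 98.1 and 84.1 without, and these overlapped. At 32 h it read 56.8, 64.9 and 82.4 against 101.5, 106.9 and 108.8, and at 48 h 92.8, 67.6 and 60.4 against 103.2, 121.1 and 123.1. At both later times every induced array lay below every uninduced one. The log2 difference was -0.15 ± 0.15 at 24 h (limma adjusted p = 0.839), -0.61 ± 0.15 at 32 h (limma adjusted p = 0.0285) and -0.63 ± 0.15 at 48 h (limma adjusted p = 0.00927). Averaged over times it fell by 0.46 ± 0.09 on the log2 scale (limma adjusted p = 4.09e-04), lower on average at 3 of 3 times.

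That probe set was the single call among the 9 member probe sets tested for induction of the BMI1 hairpin (1 of 9), against 5.83% of all probe sets called and 3.39% called lower. By time, 0, 1 and 1 of 9 were called by limma at 24, 32 and 48 h (0, 1 and 2 at an unadjusted p under 0.05), against backgrounds of 0.897%, 1.38% and 3.83%. The average call held in each fit that left out 1 array (-0.52 to -0.42). The single-time calls did not: at 32 h the call was lost without any 1 of 5 of the 6 arrays, all but replicate 3 with doxycycline (-0.64 to -0.50, adjusted p 0.065 to 0.235), and at 48 h without replicate 2 or 3 of either group (-0.60 to -0.51, adjusted p 0.0504 to 0.102). Both were also lost when only the groups of the comparison were fitted (adjusted p = 0.166 at 32 h and 0.133 at 48 h).

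In the control-shRNA line 229664_at read 90.6 to 138.7 with doxycycline and 93 to 130.7 without, a difference of -0.07 ± 0.09 (limma adjusted p = 0.971). The difference between the lines' doxycycline effects was -0.40 ± 0.13 (limma adjusted p = 0.0892), so a fall particular to the BMI1 hairpin was not called. None of the 9 member probe sets was called for that difference by limma (1 at an unadjusted p under 0.05), against 2.53% of all probe sets. The 229664_at difference was called after quantile normalization (-0.46, adjusted p = 0.0334), with a filter at the 75th percentile (adjusted p = 0.0478), and when replicate 3 of the control line with doxycycline at 24 h (adjusted p = 0.0472), replicate 1 of that line with it at 32 h (0.047), replicate 3 of the induced BMI1-shRNA line at 32 h (0.0445) or replicate 1 of that line at 48 h (0.0332) was left out.

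The other MAPK8 probe sets did not pass the test in the induced BMI1-shRNA line. The brightest, 226048_at, read 113.4, 132.6 and 144.6 (lowest, median and highest) with doxycycline and 126.3, 149.8 and 154.1 without. Its difference was -0.13 ± 0.05 (limma adjusted p = 0.136). The sets 226046_at (-0.12 ± 0.09), 210671_x_at (-0.05 ± 0.16) and 210477_x_at (0.20 ± 0.19) had adjusted p-values of 0.592, 0.927 and 0.686, and the last pair read 7.4 to 50.6 over all arrays, close to background.

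The log2 ratio of 229664_at to the brightest set, 226048_at, within an array was -0.76 ± 0.26 (SD, n = 9) on the induced BMI1-shRNA arrays and -0.42 ± 0.11 (SD, n = 9) on the uninduced ones, a difference of -0.33. Against 226046_at the ratio was 0.06 ± 0.31 and 0.41 ± 0.32 (SD, n = 9 each), a difference of -0.35. These pairs of 229664_at with the next brightest sets were picked after its fall had been seen, so the ratios are given without a test. Which transcripts each MAPK8 probe set reads was not tested.

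**Figure D2:**
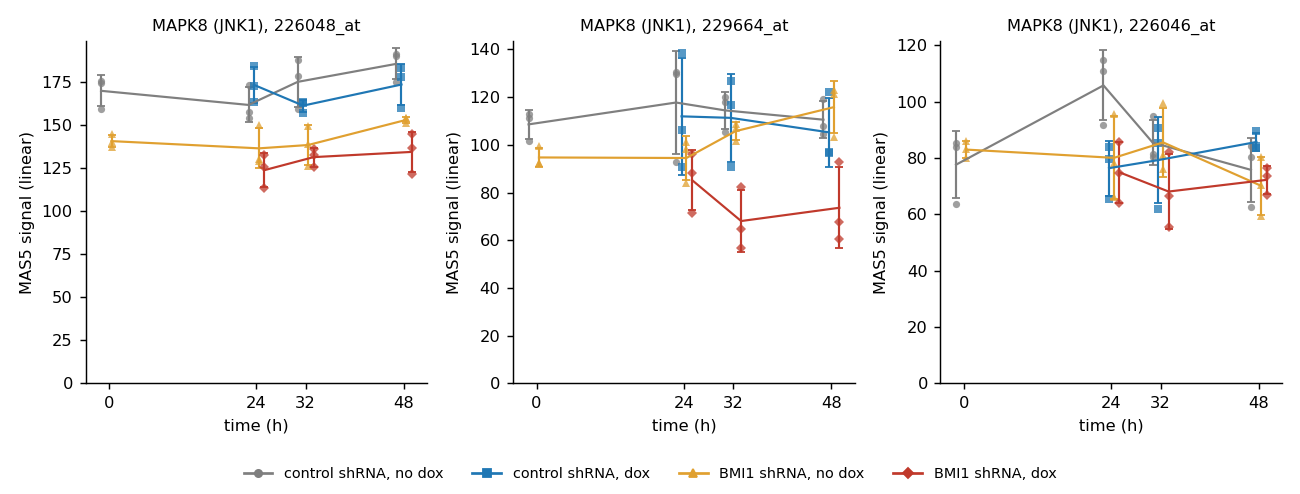
MAS5 signal (linear axes from 0) against time in h for 3 MAPK8 probe sets, with points for single arrays, lines through group means and bars of 1 SD (n = 3). On 229664_at the induced BMI1-shRNA arrays lie below the uninduced ones at 32 and 48 h, and on 226048_at the BMI1-shRNA line lies below the control line with and without doxycycline.

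**Figure D3:**
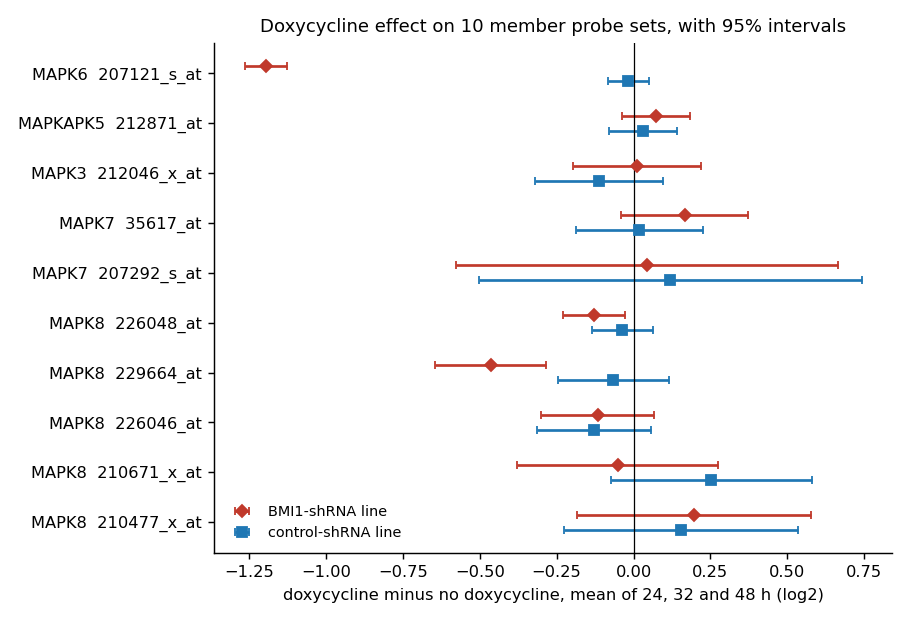
Log2 difference between doxycycline and no doxycycline, averaged over 24, 32 and 48 h, for the 10 measured member probe sets in each line, with 95% intervals from limma (9 arrays a side). MAPK6 lies at -1.20 in the BMI1-shRNA line, MAPK8 229664_at at -0.46, and the intervals of the control line all cross 0. The MAPK6 interval in the BMI1-shRNA line belongs to the contrast that chose MAPK6, so it is a description and not a test.

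Without doxycycline the derivative lines differed in 2 of 10 member probe sets, both lower in the BMI1-shRNA line, against 35.1% of all probe sets called and 18.1% called lower. MAPK8 226048_at read 126.3 to 154.1 on the 9 uninduced BMI1-shRNA arrays of 24 to 48 h and 154.4 to 191.5 on the 9 control arrays, without overlap. The difference was -0.28 ± 0.05 (limma adjusted p = 1.54e-05), and over all 42 arrays the highest of the BMI1-shRNA line (154.1) was still below the lowest of the control line (154.4). The other MAPK8 sets were not called: 226046_at differed by -0.17 ± 0.09, 229664_at by -0.11 ± 0.09, 210671_x_at by 0.07 ± 0.16 and 210477_x_at by 0.07 ± 0.19. MAPK3 read 271.2 to 485.3 in the BMI1-shRNA line and 302.7 to 523.2 in the control line, which overlapped widely, and differed by -0.31 ± 0.10 (limma adjusted p = 0.0142). That call was lost without replicate 3 of the control line at 24 h without doxycycline (-0.25, adjusted p = 0.0542).

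MAPK6 was not called between the uninduced lines (-0.07 ± 0.03, 95% interval -0.13 to 1e-04, limma adjusted p = 0.12, limma unadjusted p = 0.05025). BMI1 itself read lower in the BMI1-shRNA line before induction (-0.32 ± 0.06, limma adjusted p = 2.12e-05). A link between these line differences was not tested. MAPKAPK5 differed by -0.01 ± 0.05 (limma adjusted p = 0.879). RNA quality, read as the GAPDH 3' signal over the 5' signal, stood at 1.03 ± 0.0401 (SD) over the 21 control arrays and at 0.935 ± 0.0251 over the 21 arrays with the BMI1 hairpin. The 4 measured epithelial markers summed to 4010.6 to 5584.9 on the 12 uninduced control arrays and 5515.8 to 6584.5 on the 12 uninduced BMI1-shRNA arrays. By gene, medians were 3135 and 3556 for EPCAM, 1660 and 2309 for KRT18, 45 and 372.9 for CDH1 and 44.95 and 41.05 for KRT8. The 2 measured monocyte markers summed to 52.7 to 88.5 and 22.6 to 41.7, but went opposite ways. S100A9 had medians of 53.8 and 7.1 and CSF1R of 17.6 and 24.55, beside array medians of 16 to 22.5. CD14, LYZ and KRT19, defining genes of these lists, stayed below the filter in both lines. The part of RNA quality or of these markers in the line differences was not tested. Within the BMI1-shRNA line that ratio was 0.93 ± 0.0311 (n = 9) with doxycycline and 0.939 ± 0.02 (n = 12) without.

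Time in culture without doxycycline moved no member past the threshold. From 0 to 24 h, 0 of 10 probe sets were called by limma in the control line (4 at an unadjusted p under 0.05; background 0.925%) and 0 of 10 in the BMI1-shRNA line (0 unadjusted; background 0.735%). From 24 to 48 h, 0 of 10 were called in the control line (2 unadjusted; background 0.358%) and 0 of 10 in the BMI1-shRNA line (1 unadjusted; background 0.596%). The MAPK6 differences were -0.12 ± 0.06 and -0.07 ± 0.06 over the first interval and -0.03 ± 0.06 and -0.17 ± 0.06 over the second, in the control and BMI1-shRNA lines respectively (limma adjusted p of 0.41, 0.651, 0.913 and 0.181). The member with the highest estimate was MAPK8 210477_x_at in the control line from 0 to 24 h (0.68 ± 0.33, limma adjusted p = 0.391), followed by MAPK3 in the same comparison (0.56 ± 0.18, limma adjusted p = 0.137).

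The rest of the pathway was read from 9 gene lists of 95 symbols: other MAP kinases, regulators and substrates of ERK3 and ERK4, MAP kinase kinases and their upstream kinases, kinases activated by MAP kinases, phosphatases, scaffolds, genes induced by ERK signalling and transcription factors phosphorylated by MAP kinases. Of these, 82 genes were measured by a probe set naming no other gene, and each was read by its brightest one. On induction of the BMI1 hairpin 6 rose and 7 fell, 15.9% of the 82, where 7.54% of all 14704 genes were called. The lists were chosen with earlier results of these data known, so this share is a description and is not read as an excess. The median difference over the lists was 0.01 and over all genes 0.02. In the control line 0 of 82 were called with doxycycline by limma (8 at an unadjusted p under 0.05), against 0.122% of all genes.

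The 3 largest falls were in kinases. RPS6KA2 (RSK3), a kinase activated by ERK, read 74.5, 102.5 and 119.1 (lowest, median and highest) on the 9 induced arrays and 171.2, 205.6 and 242.5 on the 9 uninduced ones, without overlap. Its difference was -0.96 ± 0.06 (limma adjusted p = 6.17e-15), and its other probe sets were lower as well (-0.48 ± 0.06 and -0.41 ± 0.09). MAP3K5 (ASK1), a stress-activated kinase upstream of JNK and p38, read 143 to 228.9 induced and 257.8 to 348.2 uninduced, and fell by 0.73 ± 0.07 on the log2 scale (limma adjusted p = 7.73e-11), with its second probe set at -0.53 ± 0.10. NLK, an atypical MAP kinase that acts in Wnt signalling, read 125.6 to 173.5 induced and 185.2 to 222 uninduced, also without overlap, and fell by 0.49 ± 0.05 (limma adjusted p = 5.26e-10), with its other probe sets at -0.49 and -0.45.

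Smaller falls were found in JUN, the AP-1 subunit that JNK phosphorylates (-0.37 ± 0.06), MAP3K4 (-0.35 ± 0.06), RPS6KA3 (RSK2, -0.28 ± 0.05) and FOXO3 (-0.18 ± 0.03), a forkhead factor read here among the ERK3 and ERK4 list. The 6 rises ran from 0.19 to 0.28. They were in the phosphatases DUSP7 (0.28 ± 0.06) and DUSP4 (0.24 ± 0.06), which remove phosphate from MAP kinases, and in MKNK2 (0.23 ± 0.04). MAPK9 (JNK2, 0.21 ± 0.04), MAP3K2 (0.20 ± 0.05) and the ERK pathway inhibitor SPRED2 (0.19 ± 0.04) made up the rest. Among the falls, the other probe sets of RPS6KA3 (-0.25 ± 0.06) and MAP3K4 (-0.34 ± 0.05) were called lower as well, as were 1 of 3 further sets of JUN (-0.58 ± 0.08, the others at -0.28 ± 0.11 and -0.17 ± 0.18) and 2 of 3 of FOXO3 (-0.24 ± 0.06 and -0.13 ± 0.03, the other at -0.08 ± 0.31). The rises had less backing from other probe sets of the same gene. MAPK9 had 1 further set called (0.17 ± 0.05) and 1 not (0.10 ± 0.09). None of the other sets of DUSP7 (-0.01 ± 0.14), DUSP4 (0.11 ± 0.13 and 0.12 ± 0.08), MKNK2 (0.18 ± 0.07), SPRED2 (0.12 ± 0.14) or MAP3K2 (0.24 ± 0.11, 0.14 ± 0.12, 0.05 ± 0.09 and -0.01 ± 0.09) was called. The calls of MAP3K2 and DUSP4 were lost when only the groups of the comparison were fitted (adjusted p of 0.0556 and 0.0823). DUSP4 belongs to the phosphatase list and to the ERK-induced list.

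By tier, 2 of 7 other MAP kinases, 1 of 10 regulators and substrates of ERK3 and ERK4, 0 of 5 MAP kinase kinases, 3 of 16 MAP kinase kinase kinases, 3 of 9 MAP kinase-activated kinases, 2 of 10 phosphatases, 0 of 7 scaffolds, 2 of 12 ERK-induced genes and 1 of 9 phosphorylated factors were called by limma, beside 7.54% of all genes. At 5 to 16 genes a tier these shares are coarse, and no tier is read as standing apart from all genes. In the MAP kinase kinases and the scaffolds 0 passed at an unadjusted p under 0.05 as well. The ERK-induced genes had a median difference of -0.09 and the phosphatases one of 0.12, so the called members of the ERK-induced list, which rose, lay on the other side of 0 from its median.

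For the difference between the lines' doxycycline effects, 3 of the 82 genes were higher and 6 lower, 11% against 3.31% of all genes. Given how the lists were chosen, this share is again a description and not read as an excess. RPS6KA2 (-1.04 ± 0.09), MAP3K5 (-0.67 ± 0.09), NLK (-0.60 ± 0.07), JUN (-0.37 ± 0.09), FOXO3 (-0.27 ± 0.05) and RPS6KA3 (-0.24 ± 0.06) were lower, and MKNK2 (0.23 ± 0.06), SPRED2 (0.21 ± 0.05) and MAPK9 (0.19 ± 0.05) higher. The calls of RPS6KA3, SPRED2 and MAPK9 did not hold in every fit that left out 1 array.

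**Figure D4:**
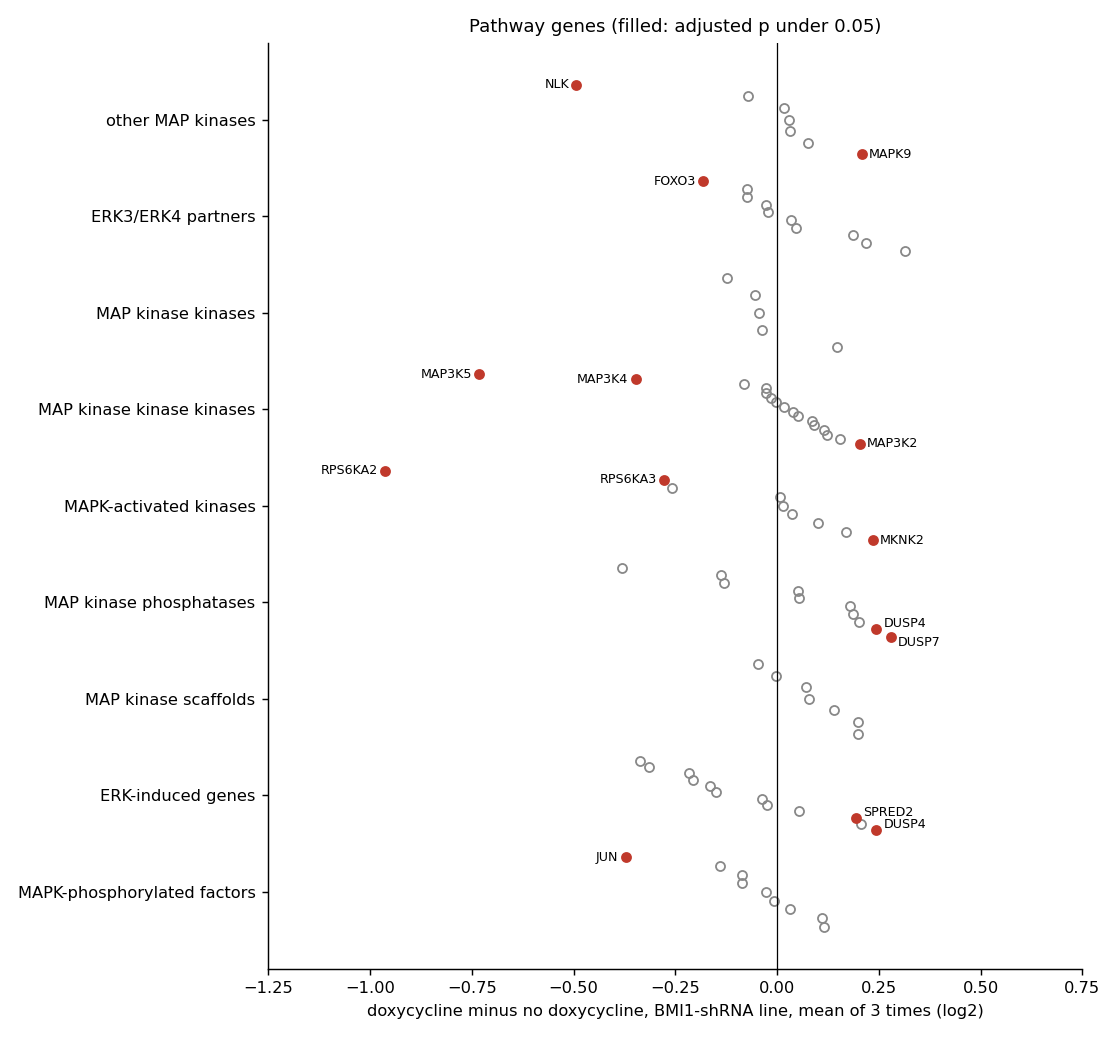
Log2 difference between doxycycline and no doxycycline in the BMI1-shRNA line, averaged over 24, 32 and 48 h, for the measured genes of 9 pathway lists, 1 point a gene, filled where limma's adjusted p was under 0.05. Most points lie near 0, and RPS6KA2 (-0.96), MAP3K5 (-0.73) and NLK (-0.49) lie furthest to the left.

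Between the uninduced lines 28 list genes were higher and 20 lower in the BMI1-shRNA line (58.5% of the 82, against 42.6% of all genes). This share too is a description, given how the lists were chosen. Of 12 ERK-induced genes 8 were higher and 1 lower: SPRED2 (0.76 ± 0.04), DUSP6 (0.68 ± 0.08) and ETV4 (0.66 ± 0.07) were among the higher, and PHLDA1 (-2.00 ± 0.08) was the lower one. Among the 16 measured kinases that start the cascade, 6 were higher and 3 lower, with a median difference of 0.06. The largest differences were in MAP3K8 (1.03 ± 0.14) and MAP3K1 (0.88 ± 0.04), both higher. MAP3K8 lay near background, at 6.3 to 15.2 on the 9 uninduced control arrays and 24.7 to 36.1 on the 9 uninduced BMI1-shRNA arrays. Of the MAP kinase kinases 3 of 5 were lower, including MAP2K1 (MEK1, -0.46 ± 0.03), and 1 was higher (MAP2K2, 0.14 ± 0.05). The MAP2K2 call was lost without any 1 of 3 of the 18 arrays. The factor MEF2C, a substrate of ERK5 and p38, was lower by -0.90 ± 0.05. The differences in GAPDH ratio and in marker sums given above hold for these arrays too, and their part was not tested. MAP3K5 was higher (0.49 ± 0.07) and RPS6KA2 lower (-0.53 ± 0.06) in this line before the hairpin was induced.

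The genes whose pattern over the 14 groups lay nearest to that of MAPK6 were API5, SLC39A10, TWF1, MRPL10 and HIRA. Likeness was the root mean square difference between group means on the log2 scale after each gene was centred on its own mean, over 14 groups and 14703 other genes. It was 0.0868 for API5, 0.103 for SLC39A10, 0.114 for TWF1, 0.115 for MRPL10 and 0.158 for HIRA, against 0.58 for the median gene. API5 is an inhibitor of apoptosis, SLC39A10 a zinc importer, TWF1 an actin monomer-binding protein, MRPL10 a mitochondrial ribosomal protein and HIRA a histone chaperone. They were picked by nearness to MAPK6 over these same groups, so their doxycycline differences follow from that choice and are given without a test. On induction in the BMI1-shRNA line these ran from -1.17 ± 0.04 (API5) to -0.98 ± 0.07 (HIRA), and in the control line from -0.08 ± 0.07 (HIRA) to 0.03 ± 0.05 (MRPL10). The same 5 genes came out in the same order under each of the other pseudocounts, normalizations and filters tried. All points share the same 42 arrays.

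**Figure D5:**
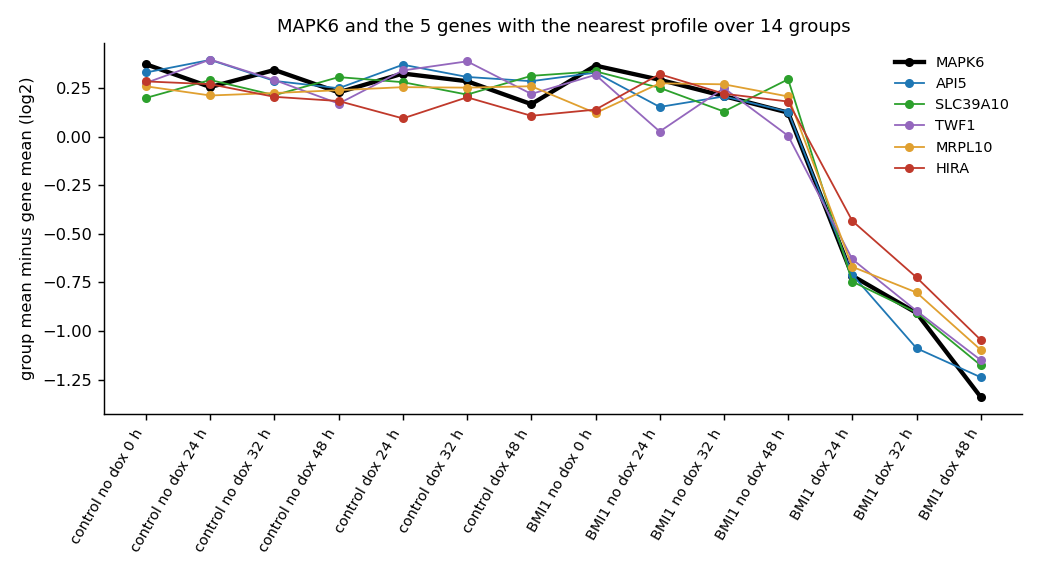
Group mean minus the gene's mean over groups (log2) for MAPK6 and the 5 genes nearest to it, in 14 groups of 3 arrays ordered by line, doxycycline and time. The profiles stay within a narrow band in the 11 groups without an induced BMI1 hairpin and fall in the other 3, MAPK6 furthest at 48 h.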

How the data were processed

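Messenger RNA of 42 samples was measured on Affymetrix U133 Plus 2 arrays. The deposited values are linear intensity per probe set, made with MAS5 per the submitters' processing notes, version not stated. Precision is limited by the 3 arrays of each group, as arrays give no read depth. Of 54675 probe sets, 62 array controls were left out and 35232 retained. Values were analysed as log2(intensity + 5.4), the 25th percentile over the whole table being 5.4, with limma 3.58.1 in R 4.3.3: 14 group means, no replicate block, eBayes with an intensity trend, Benjamini-Hochberg adjustment over all retained probe sets. The model was tested on simulated data. The members, gene lists, comparisons and naming rules (up to 4 called genes a list and comparison, and the 5 genes nearest to MAPK6) were chosen with earlier results of these data known. Probe set names come from the platform annotation, which gives 41091 probe sets 1 symbol, 1801 several and 11721 none. The 0 h BMI1-shRNA arrays were placed by their titles. Replicate numbers did not pair arrays: deviations from group means correlated at a mean r of 0.000986 for the same number and -0.000491 for different numbers. Alternatives were quantile normalization, a pseudocount of 1 or of the median, filtering at the 75th percentile or not at all, 1 probe set a gene, no trend, only the compared groups, a replicate block, fits without those 0 h arrays and leaving out each array.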

Additional observations from a re-analysis of the deposited data

Results flagged for a closer look

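For 9 pathway genes the doxycycline effect differed between the lines by limma's test of that difference. RPS6KA2 differed by -1.04 (adjusted p = 3.1e-11), MAP3K5 by -0.67 (adjusted p = 3.32e-06), NLK by -0.60 (adjusted p = 4.87e-08), JUN by -0.37 (adjusted p = 0.0111), FOXO3 by -0.27 (adjusted p = 4.02e-04) and MKNK2 by 0.23 (adjusted p = 0.0166), and these 6 were also called in each fit that left out 1 array. RPS6KA3 differed by -0.24 (limma adjusted p = 0.0294), SPRED2 by 0.21 (limma adjusted p = 0.0283) and MAPK9 by 0.19 (limma adjusted p = 0.0368). The RPS6KA3 call was lost without any 1 of 6 of the 36 arrays (-0.23 to -0.21, adjusted p 0.0508 to 0.0597): replicate 2 of the control line with doxycycline at 24 h, replicate 3 of that line without it at 32 h, and, in the BMI1-shRNA line, replicate 3 without it at 24 h, replicate 1 without it and replicate 2 with it at 32 h, and replicate 3 with it at 48 h. It was also lost with no intensity trend (adjusted p = 0.0609). The SPRED2 call was lost without any 1 of 8 arrays, each from another group (0.18 to 0.20, adjusted p 0.0503 to 0.0563), and the MAPK9 call without any 1 of 18 arrays, which came from all 12 groups (0.18 to 0.19, adjusted p 0.0504 to 0.0708), after quantile normalization (0.18, adjusted p = 0.0517) and with no filter on low signals (adjusted p = 0.0556).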

How the results depend on the processing

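For the counts of called member probe sets and the MAPK6 values, 421 of 430 recomputed values kept their direction, their side of the threshold and, for counts, stayed within 1.5 times. The other 9 moved, and none was stronger or reversed. None could be weaker, since counts were labelled only as same or moved and no tested MAPK6 value was called. A call lost from a count therefore shows as moved. Called member probe sets for the difference of doxycycline effects numbered 1 under quantile normalization and 1 with the filter at the 75th percentile, and 0 to 1 when single arrays were left out. With 1 probe set a gene, 0 were called on induction of the BMI1 hairpin, since MAPK8 is then read by 226048_at. Leaving out single arrays gave 1 to 2 called for the line difference, and -0.065 to 8e-04 for MAPK6 from 24 to 48 h in the control line. The MAPK6 difference on induction ran from -1.20 to -1.17 over settings and from -1.21 to -1.17 without single arrays. With the replicate block, MAPK6 was at -1.20 on induction, 1 member was called there and 2 between the lines; it changed no other call of a member count or of MAPK6. The count of pathway genes with a higher difference of doxycycline effects was 2 to 5 over settings and 1 to 4 without single arrays, against 3. Among named pathway genes and the other member probe sets, 5134 of 5362 values kept their side, 67 were weaker, 6 stronger, 155 moved and 0 reversed. Signal over background limits MAPK4, MAPK6 243831_at, MAPK7 207292_s_at and the MAPK8 sets 210477_x_at and 210671_x_at.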
